A study of Rattus norvegicus with 45 samples.

Results

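Astrocyte genes, 10 in number, were followed in the hippocampus of aging rats on full or restricted food. They were Gfap, Vim, Gjb6, Gja1, Aqp4, Slc1a2, Slc1a3, S100b, Glul and Aldh1l1. A probe set was taken when its annotated symbol, or the current symbol of its gene number, equals one of these names, which gave 19 of the 31099 probe sets on the array. Aldh1l1 is listed under its older name Fthfd and was matched by gene number. Where a gene has several probe sets, the one with the highest mean signal stands for it, and the others are described beside it.

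Astrocytes clear glutamate from synapses, turn it into glutamine, share ions and metabolites through gap junctions, and line blood vessels with endfeet rich in water channels. With age or injury they can enlarge and carry more intermediate filament protein, a state called reactive. In RNA from whole tissue, more cells of a type and more RNA per cell cannot be told apart.

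Hippocampal pieces were taken from each of 15 male F344xBN rats: CA1, CA3 and DG, the dentate gyrus. The strain is a cross of Fischer 344 and Brown Norway, and each piece had its own Affymetrix RAE 230 2.0 array (45 arrays). The 6 old restricted animals (28 months) were 3 good and 3 poor performers, with calories cut by 10% at 14 weeks of age, later by 25%, and by 40% from 17 weeks on. The 6 old animals fed ad libitum (28 months) were also 3 good and 3 poor performers, and the 3 middle-aged animals (18 months) were fed ad libitum and had no performance class. Age was therefore compared under ad libitum feeding and diet in old animals. No label says by which task performance was judged. The label of 1 middle-aged CA3 array repeats the animal code of another, and it was placed with the animal of its title number. A DG array titled as a restricted good performer (the second) carries the poor class in its array name and was kept as titled.

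On each array 58.9% to 67.4% of probe sets had a present call. Over 15 arrays per region, the median of the CA1 pyramidal list was highest in CA1, that of the CA3 pyramidal list in CA3 and that of the dentate granule list in DG, with overlap between some regions. The authors marked 2 arrays as outliers, both of 1 restricted poor performer. Their ratios of 3′ to 5′ Gapdh signal were 7.64 in CA1 and 6.08 in CA3, against 1.49 to 3.37 on the other 43 arrays. Among those 43, the ratio in CA3 was 2.09 to 2.25 in middle-aged and 1.75 to 1.92 in old ad libitum animals, without overlap. In DG it was 1.56 to 2.06 in restricted and 1.95 to 2.65 in old ad libitum animals, with overlap. Age groups overlapped in CA1 and DG, and diet groups in every region. The part of this ratio in the differences was not tested. The DapX poly-A controls, bacterial transcripts added to the RNA, split the arrays into sets: 257 to 332 on all 9 middle-aged arrays, 70.0 to 128 on 22 arrays (all 18 of the old ad libitum animals and 4 restricted ones) and 1.78 to 6.76 on the other 14 restricted arrays. The sets are defined by this signal alone, with limits chosen after seeing the data. Age cannot be told apart from the poly-A set in any region, nor diet in DG or in the mean of the regions, which includes DG.

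Of the 19 probe sets, 17 passed the filter on low signal, and each gene kept at least 1. The 2 that failed were both for Gja1. Probe sets of a gene are numbered here by their mean signal, the brightest first. Signals below are the authors' dChip values, a linear expression index fitted to the probes of a set. Differences are in log2(signal + 16), with the standard error (SE), tested with limma over all probe sets that passed and adjusted by Benjamini and Hochberg, with 0.05 as the threshold. The authors' second set of signals, called the value table here, was fitted in the same way. Signals of different genes are not compared with each other.

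**Figure D1:**
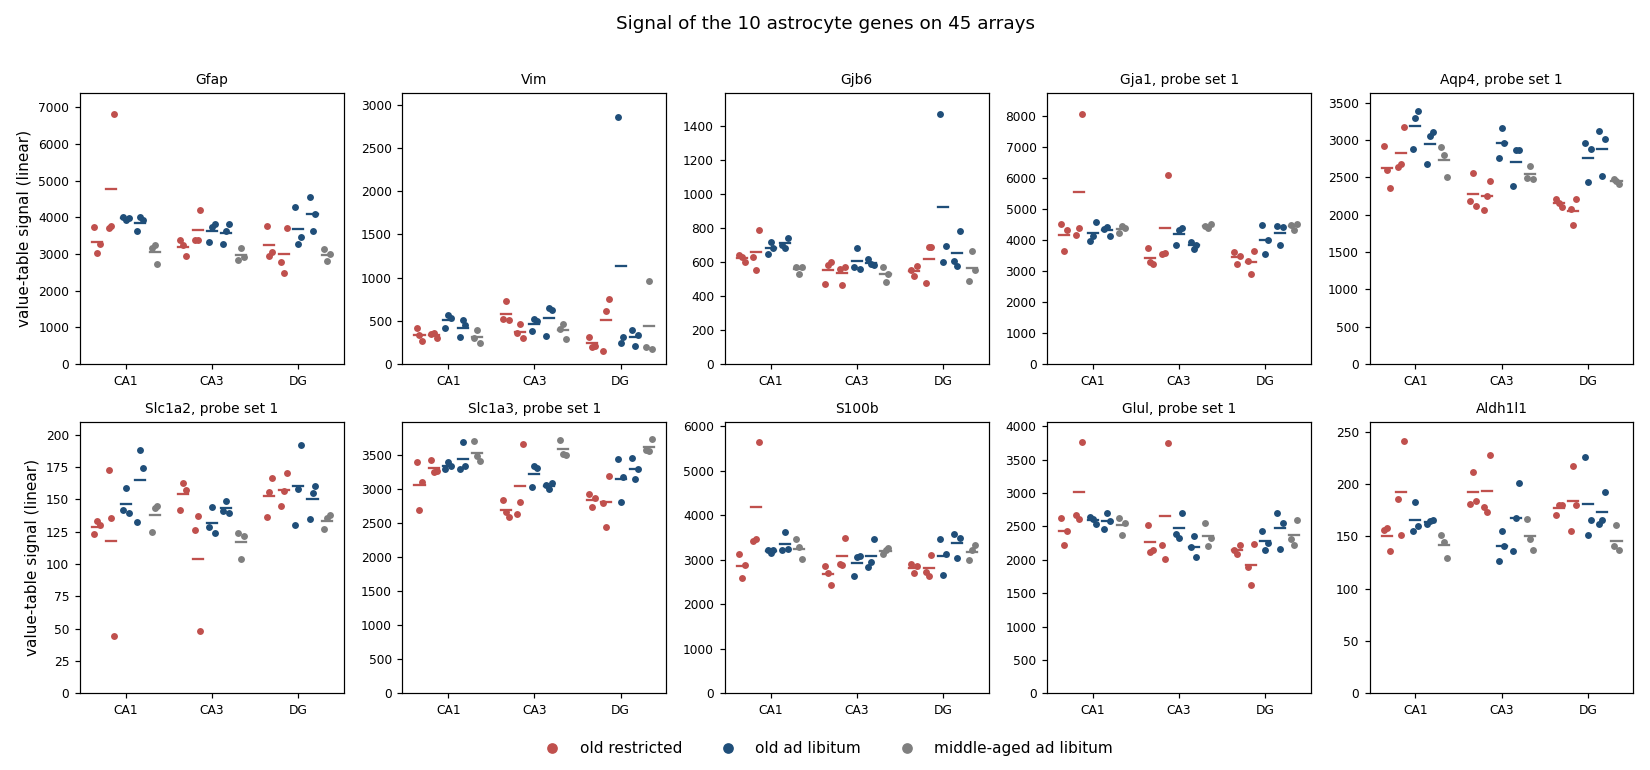
Value-table signal (linear axis from 0) of the probe set that stands for each of the 10 genes, by region, with colours for old restricted, old ad libitum and middle-aged animals. Points are arrays and horizontal bars the means of 3 arrays; 1 old ad libitum DG array stands far above the rest for Vim and Gjb6, and 1 restricted CA1 array for Gfap, Gja1 and S100b.

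The first comparison asked which astrocyte genes differed between old and middle-aged animals fed ad libitum (6 against 3). Gfap, the intermediate filament protein by which astrocytes are usually recognised, rose in CA1, CA3 and DG. With the regions averaged per animal, 5 of the 10 genes rose and none fell: Gfap, Gjb6, Slc1a2, Aldh1l1 and Aqp4. In that comparison 40.1% of all probe sets tested passed, 28.2% as higher and 11.8% as lower, and the median difference was 0.21 for the 10 genes and 0.05 for all tested probe sets. In CA1 5 of 10 rose (of all probe sets 27.8% passed, 20.6% higher and 7.21% lower), in CA3 1 of 10 (20.1%, with 15.2% higher and 4.86% lower) and in DG 1 of 10 (10.3%, with 8.21% higher and 2.1% lower).

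Gfap signal in CA1 was 10609.8 to 12555 (median 11789) in old animals, against 9533, 10083 and 8716 in middle-aged animals. In CA3 it was 10489 to 11753 (median 10787) in old animals, against 8657, 9780.0 and 8653 in middle-aged ones. In DG it was 11364 to 12183 (median 11702) in old animals, against 9401, 9307 and 9408 in middle-aged ones. Every old array stood above every middle-aged array of its region, as was so for 21% of probe sets in CA1, 17.7% in CA3 and 13.3% in DG. The Gfap difference was 0.31 ± 0.07 (adjusted p = 0.0111) in CA1, 0.29 ± 0.07 (adjusted p = 0.0159) in CA3 and 0.32 ± 0.05 (adjusted p = 0.00541) in DG. As the mean of the regions it was 0.31 ± 0.04 (adjusted p = 0.00034), or 1.24-fold. Whether the age difference varied with region was tested as an interaction, and 0 of the 10 genes passed (limma; none at an unadjusted p under 0.05; 0.0215% of probe sets passed).

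In the value table the Gfap difference was 0.37 (adjusted p = 0.0094) in CA1, 0.28 (adjusted p = 0.0451) in CA3 and 0.38 (adjusted p = 0.0757) in DG. Without the third middle-aged array, the dChip difference of Gfap did not pass in CA1 (0.25, adjusted p = 0.0618) or in CA3 (0.26, adjusted p = 0.0735), and in CA3 it was also 0.26 without the first (adjusted p = 0.0636). The authors' deposited table for all regions lists Gfap at 1.24-fold higher in old animals.

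**Figure D2:**
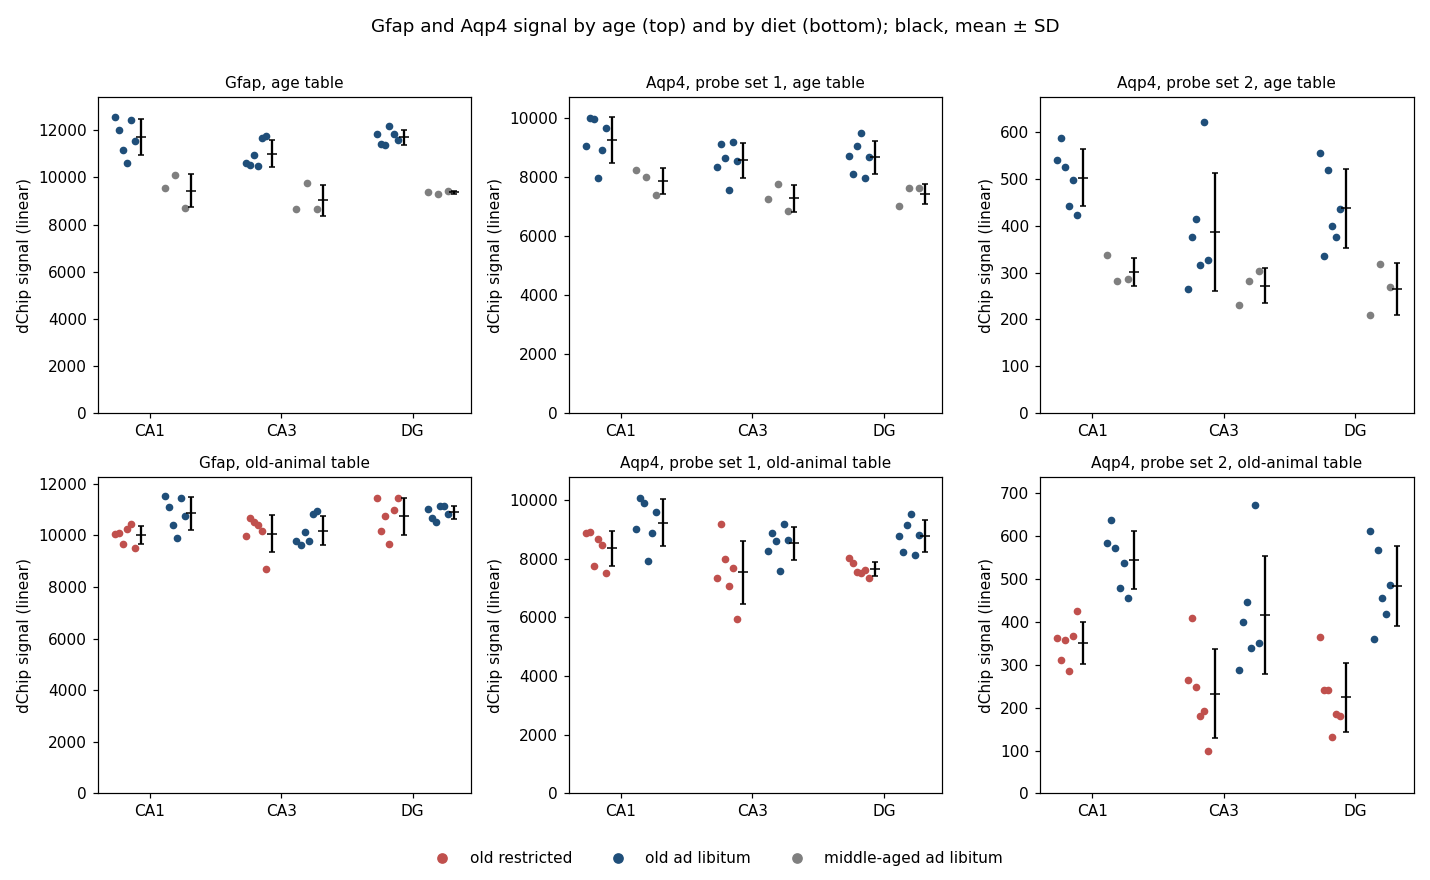
dChip signal (linear axis from 0) of Gfap and of 2 Aqp4 probe sets, by region; the upper row sets old against middle-aged animals fed ad libitum and the lower row old restricted against old ad libitum animals, each row from its own table. Points are arrays and black bars the mean ± SD; Gfap separates by age in every region and overlaps by diet.

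Aqp4 encodes the water channel of astrocyte endfeet. Its brightest probe set averaged 9274 ± 777 in old and 7885 ± 435 in middle-aged CA1 (SD, n = 6 and 3), and 8681 ± 571 in old and 7439 ± 339 in middle-aged DG. The arrays of the age groups overlapped in CA1 and CA3 but not in DG. No single region passed (adjusted p = 0.0583 in CA1, 0.0555 in CA3 and 0.0832 in DG), while the mean of the regions did, at 0.23 ± 0.04 (adjusted p = 0.00221). The second, dimmer Aqp4 probe set read 423 to 587 (median 511) in old CA1, against 336, 282 and 286 in middle-aged CA1, without overlap. Its difference was 0.70 ± 0.11 (adjusted p = 0.00115) in CA1, 0.44 ± 0.22 (adjusted p = 0.191) in CA3 and 0.68 ± 0.17 (adjusted p = 0.0384) in DG, where 6 of the 9 fits that left out 1 array did not pass. The third probe set gave -0.11 ± 0.09 (adjusted p = 0.398) over the regions, so the Aqp4 probe sets did not move as one.

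Gjb6 and Gja1 encode connexin 30 and connexin 43, which form the gap junctions between astrocytes. In CA1 Gjb6 read 3080.0 to 3483 (median 3344) in old animals, against 2708, 2488 and 2692 in middle-aged animals, without overlap. It rose there by 0.33 ± 0.06 (adjusted p = 0.00351), which passed whichever array was left out, and over the regions by 0.29 ± 0.08 (adjusted p = 0.0145). Gja1 averaged 11908 ± 345 in old and 11483 ± 404 in middle-aged CA1 (SD, n = 6 and 3), and differed by 0.03 ± 0.03 (adjusted p = 0.407) over the regions.

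Of the glutamate transporters, Slc1a2 (GLT-1) rose and Slc1a3 (GLAST) did not pass in the dChip values. Slc1a2 read 839 to 1164 (median 1009) in old CA1, against 734, 815 and 809 in middle-aged CA1, without overlap. Its difference was 0.34 ± 0.10 (adjusted p = 0.0332) in CA1, where 6 of the 9 fits that left out 1 array did not pass, and 0.27 ± 0.06 (adjusted p = 0.00347) over the regions, where all 9 that left out 1 animal did. The second Slc1a2 probe set gave -0.02 ± 0.06 (adjusted p = 0.848) over the regions. Slc1a3 gave 0.00 ± 0.03 (adjusted p = 0.931) over the regions, and -0.14 (adjusted p = 0.0191) in the value table, where it passed as lower in old animals. The second Slc1a3 probe set gave 0.25 ± 0.12 (adjusted p = 0.116) and the third 0.10 ± 0.07 (adjusted p = 0.336). What makes the tables differ was not tested.

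Glul, glutamine synthetase, has 3 probe sets that did not move alike. The brightest differed by 0.04 ± 0.03 (adjusted p = 0.289) over the regions, whereas the second rose by 0.41 ± 0.05 (adjusted p = 0.000287) and the third by 0.42 ± 0.06 (adjusted p = 0.000697). On the second the signals were 3813 to 4851 (median 4643) in old CA1, against 3534, 3286 and 3008 in middle-aged CA1, without overlap. A statement on Glul as a gene thus rests on the choice of probe set. The mean signal of the brightest lies above that of 99.0% of probe sets in the table of ad libitum arrays, and the probe sets that stand for Gfap, Gja1, Slc1a3 and S100b lie above 99.7%. Whether differences at such signals were compressed was not tested.

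Aldh1l1, a folate enzyme that marks astrocytes broadly, read 824 to 1002 (median 945) in old CA1, against 799.5, 753 and 698 in middle-aged CA1, without overlap. It rose by 0.30 ± 0.08 (adjusted p = 0.0159) in CA1 and by 0.25 ± 0.05 (adjusted p = 0.00268) over the regions, and the value table gave 0.16 (adjusted p = 0.0795) over the regions. S100b, a calcium-binding protein, differed by 0.05 ± 0.04 (adjusted p = 0.349) over the regions. Vim, an intermediate filament protein of immature and reactive astrocytes and also of vascular and meningeal cells, read 2975 to 3946 (median 3558) in old CA1, against 2801, 3019 and 2242 in middle-aged CA1, with overlap, and rose there by 0.39 ± 0.11 (adjusted p = 0.027). Without the third middle-aged CA1 array, 1 of the 5 genes passed in CA1 (Gjb6), and Vim was at 0.27 (adjusted p = 0.128) and Aldh1l1 at 0.24 (adjusted p = 0.0817).

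**Figure D3:**
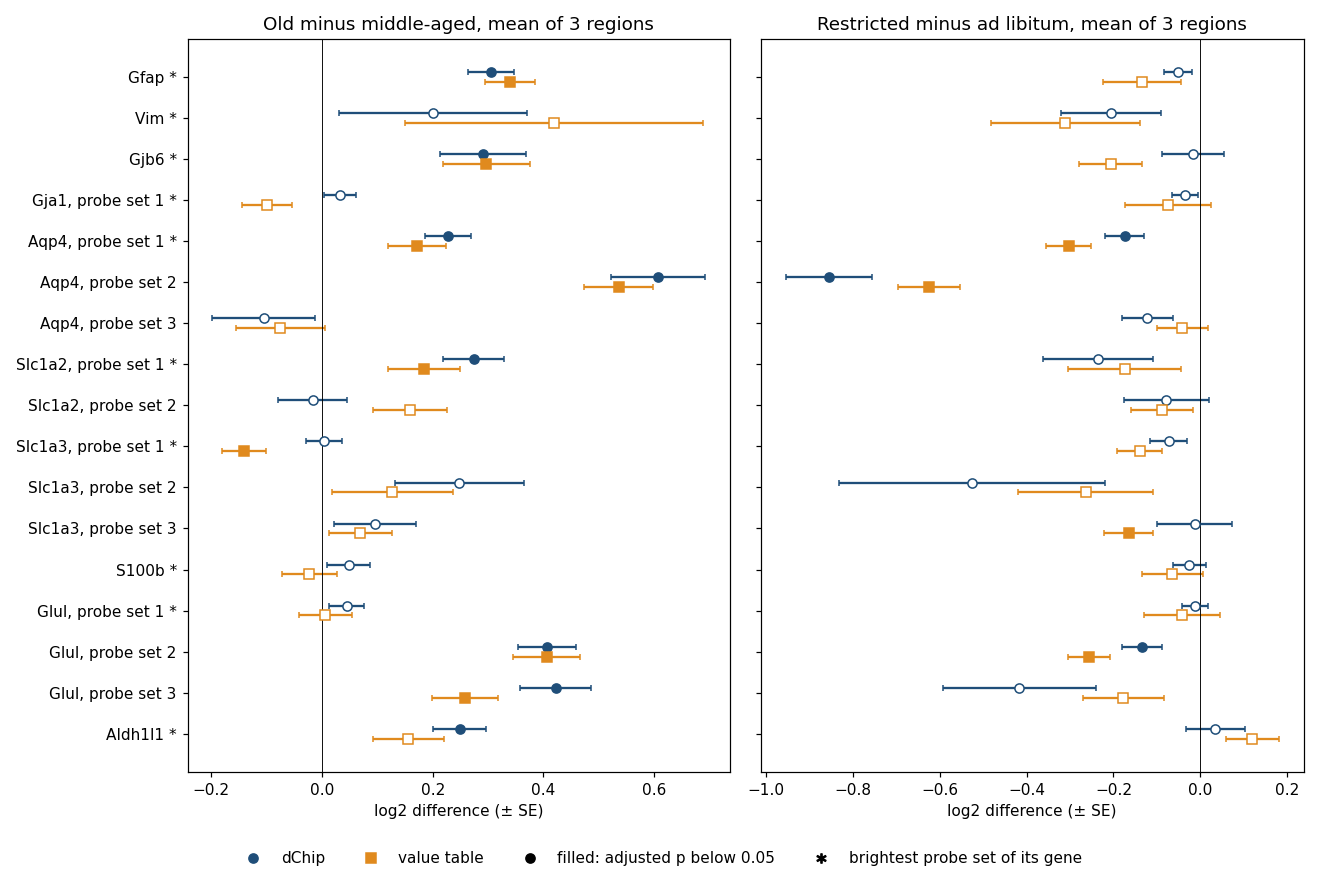
Differences (log2, ± SE) of the 17 member probe sets that passed the filter, old minus middle-aged (left) and restricted minus ad libitum (right), as the mean of 3 regions per animal, in dChip values (circles) and in the value table (squares). Filled marks have an adjusted p below 0.05; in dChip values 8 probe sets lie higher with age, and 3 lie lower with restriction, 2 of them for Aqp4.

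In DG, Vim followed single arrays. It read 1790.3 to 7837 (median 2370.4) in old animals, against 2009, 5219.9 and 1758 in middle-aged animals, a difference of 0.10 ± 0.50 (adjusted p = 0.931). The old array at 7837 and the middle-aged array at 5219.9 had the highest means of their groups over a list of meninges and fibroblast genes: 9.17 and 7.34 in log2 (value table), with medians of 5.65 over the old and 5.49 over the middle-aged DG arrays. Of that list 9 of 10 genes were on the array, 8 entered these means and 7 were tested in the dChip values. The same old array had 6082 for Gjb6, against 2677 to 3587 on the other old DG arrays. In the old-animal table, 2 restricted DG arrays with list means of 7.24 and 7.05 had Vim signals of 4024.5 and 4627, against 1360.2 to 2550.2 on the other 4 restricted arrays. The part of meninges in these values was not tested. Without the 4 DG arrays whose list mean is above 7, a limit set after seeing the data, Gfap was higher with age in DG by 0.31 (adjusted p = 0.0299).

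**Figure D4:**
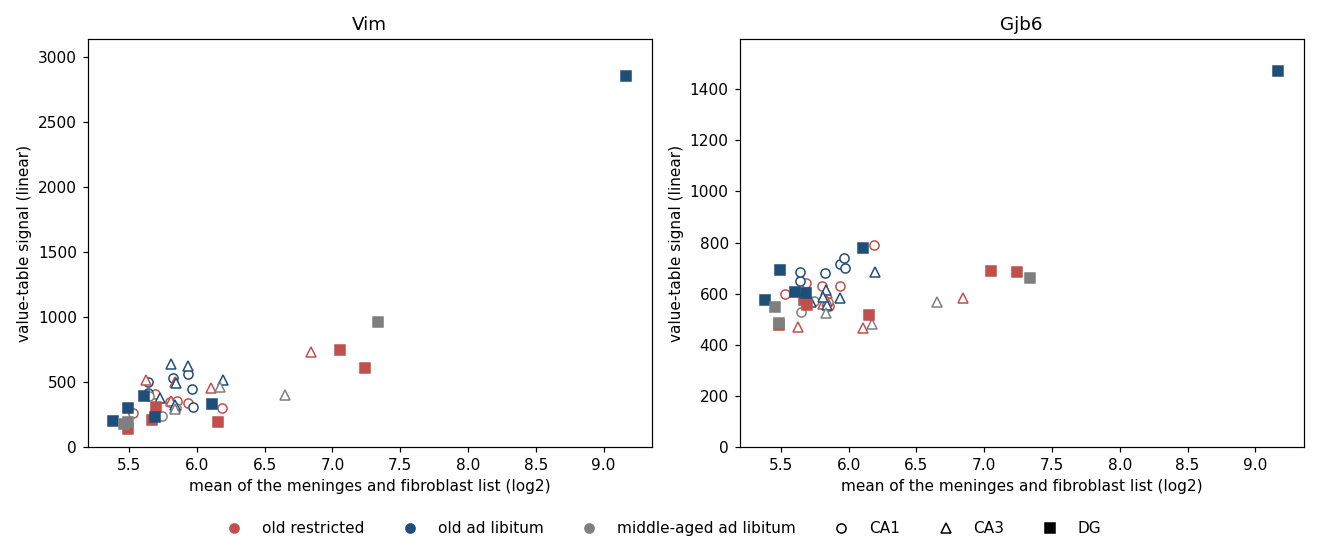
Value-table signal of Vim and Gjb6 (linear axis from 0) against the mean of the meninges and fibroblast list (log2) on 45 arrays. Colours mark diet and age, filled marks DG and open marks the other regions; the array at 9.17 is an old ad libitum good performer, and 3 more DG arrays lie above 7.

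Wider lists were set beside the 10 genes. Of 41 further astrocyte genes, 34 were tested, and over the regions 19 rose with age, none fell and 15 did not pass, with a median difference of 0.17 (all tested probe sets 0.05, of which 28.2% rose). Agt, angiotensinogen, rose by 0.56 ± 0.04 (adjusted p = 6.04e-06) and Cbs, an enzyme of cysteine synthesis, by 0.59 ± 0.05 (adjusted p = 1.77e-05). The receptors Gpr37l1 and Ntsr2 rose by 0.34 ± 0.04 (adjusted p = 6.33e-05) and 0.44 ± 0.05 (adjusted p = 0.000107). Of 32 reactive astrocyte genes, 17 were tested: 6 rose, 1 fell and 10 did not pass, with a median of 0.22. Serping1, a complement inhibitor, rose by 1.32 ± 0.25 (adjusted p = 0.00275), and Hspb1, a small heat shock protein, by 0.90 ± 0.23 (adjusted p = 0.0133). Ptgs2, cyclooxygenase 2, was the gene that fell, with -0.35 ± 0.07 (adjusted p = 0.0031). Stat3, a transcription factor of cytokine signalling, rose by 0.39 ± 0.10 (adjusted p = 0.0117) in dChip values and gave -0.11 in the value table (adjusted p = 0.353).

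Markers of microglia moved with age in the same arrays. Of 10 microglia genes, all tested, 6 rose and none fell over the regions, with a median of 0.88. Trem2, a microglial receptor, rose by 0.86 ± 0.05 (adjusted p = 3.18e-06). The mean of that list in CA1 ran from 7.03 to 8.22 in old and from 6.42 to 6.80 in middle-aged animals (log2, value table), without overlap. The value of 8.22 was from 1 good performer, and the next highest old array was at 7.35. Of 10 oligodendrocyte genes 3 rose and none fell, and of 8 neuron genes 2 rose and none fell, shares near the 28.2% of all probe sets that rose. The part of these cells in the astrocyte gene differences was not tested.

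The second comparison asked which astrocyte genes differed between restricted and ad libitum animals of the same age (6 against 6, with performance in the fit). Aqp4 was the member that fell. As the mean of the regions 1 of the 10 genes fell and none rose, where 35.3% of all probe sets passed, 22.2% as lower and 13% as higher. In CA1 0 of 10 passed (limma; 2.65% of all probe sets passed, 1.44% lower and 1.21% higher; 1 member at an unadjusted p under 0.05), in CA3 0 of 10 (8%, with 5.32% lower and 2.68% higher; none at an unadjusted p under 0.05), and in DG 1 of 10 was lower (of all probe sets 32.9% passed, 20.1% lower and 12.8% higher). In DG Aqp4 read 7347 to 8031 (median 7575) on its brightest probe set in restricted animals, against 8114 to 9526 (median 8783) in ad libitum animals, without overlap, as was so in the same direction for 8.47% of probe sets in DG. The difference was -0.19 ± 0.05 (adjusted p = 0.0132) in DG and -0.17 ± 0.04 (adjusted p = 0.012) over the regions. Without the array whose class differs between its labels it was -0.20 in DG (adjusted p = 0.0251). The value table gave -0.42 (adjusted p = 0.00356) in DG, -0.32 (adjusted p = 0.0448) in CA3 and -0.30 (adjusted p = 0.00145) over the regions.

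The second Aqp4 probe set moved more. In CA1 it read 285 to 424 (median 359.8) in restricted animals, against 456 to 638 (median 554) in ad libitum animals. All restricted arrays lay below all ad libitum arrays, as was so for 1.97% of probe sets in CA1. The difference in CA1 was -0.61 ± 0.10 (adjusted p = 0.0337), and 8 of the 12 fits that left out 1 array did not pass. In DG it read 132 to 364 (median 212) in restricted animals, against 359.8 to 611 (median 471) in ad libitum animals, with a narrow overlap and a difference of -1.10 ± 0.17 (adjusted p = 0.00115). In CA3 the groups overlapped, at -0.85 ± 0.27 (adjusted p = 0.0723). Over the regions the difference was -0.85 ± 0.10 (adjusted p = 0.000213), and it passed whichever animal was left out. The authors' deposited tables list this probe set 1.59-fold lower in CA1 and 2.11-fold lower in DG. The third Aqp4 probe set did not pass for diet in any region or over the regions. Its mean log2 signal was 7.90 in restricted and 7.91 in ad libitum animals in CA1, and 7.72 and 7.84 over the regions.

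In DG the diet groups also differ in the poly-A set, and diet cannot be told apart from it there, nor among poor performers in any region. The same holds over the regions, since the mean of each restricted animal includes DG. In CA3 only 1 restricted array, of a good performer, shares the set of the ad libitum arrays. In CA1 the 3 restricted and the 3 ad libitum good performers share a set, and within them the second Aqp4 probe set differed by -0.77 ± 0.08 (adjusted p = 0.184), which did not pass. In DG it differed by -1.38 ± 0.14 (adjusted p = 0.0184) within poor performers and by -0.82 ± 0.25 (adjusted p = 0.0954) within good performers. The difference between the classes was tested as an interaction over the regions, and 0 of 10 genes passed (limma; 0 of 18622 probe sets passed and 1936 had an unadjusted p under 0.05). Diet by region was tested likewise, and 0 of 10 passed (limma; none at an unadjusted p under 0.05; 0.043% of probe sets passed). Without the 4 DG arrays high in meninges genes, the brightest Aqp4 probe set was at -0.18 (adjusted p = 0.0924) and the second at -1.06 (adjusted p = 0.0197) in DG.

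Gfap did not pass for diet in any region. In CA1 it read 9518 to 10429 (median 10088) in restricted animals, against 9886 to 11534 (median 10929) in ad libitum animals, with overlap. Its difference was -0.12 ± 0.06 (adjusted p = 0.201) in CA1, -0.02 ± 0.07 (adjusted p = 0.904) in CA3 and -0.02 ± 0.05 (adjusted p = 0.766) in DG. The value table gave -0.32 (adjusted p = 0.0749) in DG. In that table, which holds all arrays with no scale stated, Gfap in DG averaged 3127 ± 516 in restricted animals. It averaged 3887 ± 501 in old ad libitum and 2975 ± 163 in middle-aged animals (SD, n = 6, 6 and 3). Each of these groups lies in its own poly-A set, from which neither age nor diet can be told apart here. Ordered from the highest class mean in DG, ad libitum poor performers were followed by ad libitum good performers, restricted good performers, restricted poor performers and the middle-aged, and the arrays of each class overlapped those of the next. The order was not the same elsewhere: in CA1 and CA3 the restricted poor performers had the highest class mean, 4771 ± 1785 and 3656 ± 472 (SD, n = 3 each), with 1 marked array in each.

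The other 8 genes did not pass for diet in any region of the dChip values. Vim in CA1 came nearest, at -0.30 ± 0.08 (adjusted p = 0.0599), and passed at -0.32 (adjusted p = 0.0459) without the marked array. Gja1 in DG was at -0.04 (adjusted p = 0.391) in dChip values and at -0.29 (adjusted p = 0.027) in the value table, where it passed as lower. Among the further probe sets, the second of Glul fell, with -0.13 ± 0.05 (adjusted p = 0.0413) over the regions, but 9 of the 12 fits that left out 1 animal did not pass (adjusted p up to 0.0838), among them the one without the animal of the marked arrays, at -0.11 (adjusted p = 0.0525). The second Slc1a3 probe set was at -0.52 ± 0.31 (adjusted p = 0.201) and the third at -0.01 ± 0.09 (adjusted p = 0.92). Without the animal of the marked arrays the second was at -0.19 (adjusted p = 0.0751). Slc1a3, S100b and Aldh1l1 were at -0.07, -0.03 and 0.03 over the regions, with adjusted p of 0.206, 0.633 and 0.717.

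The marked arrays carried the most extreme values of several members. Slc1a2 read 455 on the marked CA1 array, against 840.2 to 1112 on the other restricted arrays of CA1, and 296 on the marked CA3 array, against 789 to 928 on the others of CA3. Its diet difference was -0.35 ± 0.19 in CA1, -0.16 without the marked array, and -0.28 ± 0.24 in CA3, -0.03 without it. The third Glul probe set read 282 and 116 on these arrays, and without that animal it fell over the regions, at -0.22 (adjusted p = 0.00206). Aldh1l1 read 1939.7 on the marked CA1 array, against 897 to 1080.3 on the others, so members stood both low and high on the same array. In the value table that array had the highest Gfap signal of all, 6832.

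**Figure D5:**
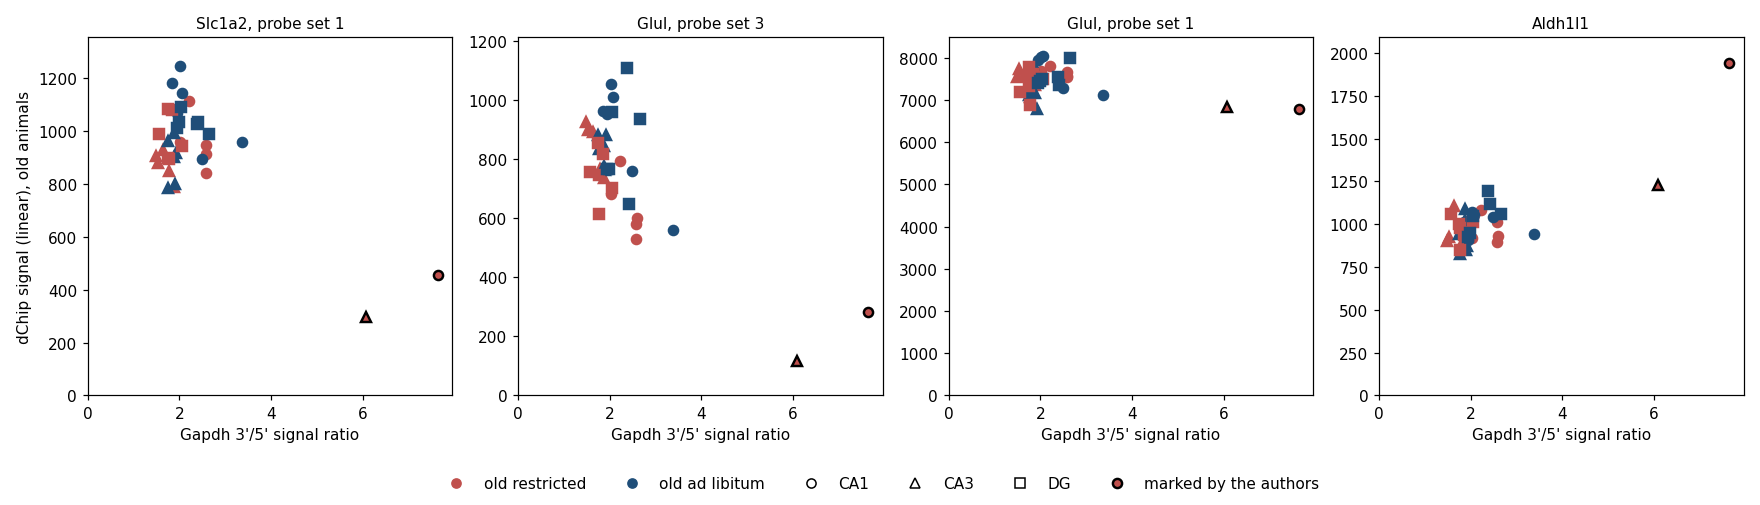
dChip signal (linear axes from 0) of 4 member probe sets on the 36 arrays of old animals against the ratio of 3′ to 5′ Gapdh signal. Black outlines mark the 2 arrays that the authors set apart, at ratios of 7.64 and 6.08; they lie lowest for Slc1a2 and the third Glul probe set and highest for Aldh1l1.

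Of the 34 further astrocyte genes tested, 7 fell with restriction and 1 rose over the regions, with a median of -0.08 (all tested probe sets -0.04). That share of falling genes is no larger than the 22.2% of all probe sets that fell, so the list does not stand apart by its count. Entpd2, an ectonucleotidase, fell, with -0.21 ± 0.04 (adjusted p = 0.00196), as did Chrdl1, a secreted BMP antagonist, with -0.53 ± 0.10 (adjusted p = 0.00216). Id3, a target of BMP signalling, fell with -0.59 ± 0.13 (adjusted p = 0.00514), and Fabp7, a fatty acid carrier of radial glia and astrocytes, with -0.17 ± 0.04 (adjusted p = 0.00716). Of 17 reactive astrocyte genes tested, 7 fell and none rose, with a median of -0.28, among them Serping1 with -0.68 ± 0.21 (adjusted p = 0.0256). Of the 10 microglia genes 5 fell and none rose, with a median of -0.48. The part of microglia or other cells in the counts of the reactive list was not tested. The age and diet comparisons share the old ad libitum animals.

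The third comparison set poor against good performers among the old animals, with diet in the fit. None of the 10 genes passed in any region or over the regions, where 0% of probe sets passed in each region and 0.0215% over the regions (limma; no member had an unadjusted p under 0.05, whereas 3032 probe sets did in CA1, 720 in CA3 and 2027 in DG). The Gfap difference over the regions was 0.00 ± 0.03 (adjusted p = 0.992), and Aqp4 had -0.08 ± 0.04 (adjusted p = 0.351).

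Regions were compared within animals, over the 9 that ate ad libitum. In CA3 against CA1, 4 of the 10 genes were lower and none higher, where 13.5% of probe sets were lower and 8.8% higher. They were Slc1a2 with -0.24 ± 0.05 (adjusted p = 0.00419), Gja1 with -0.11 ± 0.03 (adjusted p = 0.014), Slc1a3 with -0.11 ± 0.03 (adjusted p = 0.0262) and S100b with -0.10 ± 0.04 (adjusted p = 0.0452). Leaving out 1 animal at a time, Slc1a2 and Gja1 passed in all 9 fits, Slc1a3 in 5 and S100b in 2. In DG against CA3, Slc1a2 was higher by 0.19 ± 0.05 (adjusted p = 0.00979) and Gja1 by 0.10 ± 0.03 (adjusted p = 0.014), 2 of 10 where 20% of probe sets were higher. In DG against CA1 none of the 10 passed (limma; none at an unadjusted p under 0.05; of all probe sets 16.5% passed, 8.13% higher and 8.41% lower). Gfap was at -0.08 ± 0.04 (adjusted p = 0.114) in CA3 against CA1. In the value table none of the 10 passed between any pair of regions, and Slc1a2 in CA3 against CA1 was at -0.17 (adjusted p = 0.0655). Of the further astrocyte genes, 9 of 34 were lower in CA3 than in CA1 and none higher, among them Ppp1r3c, a glycogen-targeting phosphatase subunit, with -0.23 ± 0.05 (adjusted p = 0.00253).

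The promoters of Gfap, which rose with age in every region, and of Gja1, which passed for age in none, are shown for comparison. They are the 250 bases before the annotated start in RefSeq (GRCr8), and capitals mark a match to the AP-1 letters TGANTCA or the STAT letters TTCNNNGAA on either strand. The Gfap stretch lies at chr10:88361662-88361911 on the minus strand and that of Gja1 at chr20:36302314-36302563 on the plus strand.
Gfap: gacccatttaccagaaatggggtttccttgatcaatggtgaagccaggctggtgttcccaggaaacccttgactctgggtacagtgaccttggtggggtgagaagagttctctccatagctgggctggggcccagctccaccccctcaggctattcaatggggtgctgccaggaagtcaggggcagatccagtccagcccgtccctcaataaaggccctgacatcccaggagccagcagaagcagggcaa
Gja1: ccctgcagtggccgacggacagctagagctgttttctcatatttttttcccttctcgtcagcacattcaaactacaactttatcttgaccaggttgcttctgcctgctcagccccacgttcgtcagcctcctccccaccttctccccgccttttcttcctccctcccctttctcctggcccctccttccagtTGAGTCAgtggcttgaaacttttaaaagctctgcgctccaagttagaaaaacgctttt
The 10 members have 16 starts in that table. The AP-1 letters occur in 1 of these 16 stretches, that of Gja1, and in 6.34% of 33465 stretches of all genes. The STAT letters occur in none of the 16 and in 7.67% of all stretches. The letters TTGGC of the NFI factors occur in 8 of the 16 and in 40.3% of all stretches. The 3 stretches of Slc1a3 overlap almost fully and share a single TTGGC match, so the 8 are not separate sites. A match is a run of letters and no measure of binding.

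Likeness to the members was measured over the 45 arrays of the value table after the mean of each region was taken off. The arrays share animals and poly-A sets, and the correlations are a description. The genes most like Gfap were Ubxn1 (Pearson r = 0.82), Fam107a (0.81), Aldoc (0.81), Mt1 (0.81) and Mt3 (0.80). Over the 43 arrays without the marked ones they were Clu (0.83), Chi3l1 (0.81), Ctsb (0.79), Pea15 (0.78) and Mt1 (0.78). The genes most like the mean of the members were Aldoc (0.85), Rpl19 (0.85), Apoe (0.84), Cd81 (0.84) and Fam107a (0.83). Among the members, Gja1 and S100b had r = 0.85 over 45 arrays and 0.75 over 43, and Gja1 and Slc1a3 0.69 and 0.90. Gfap and Slc1a2 had -0.45 over 45 arrays and 0.10 over 43.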

How the data were processed

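Hippocampal RNA of 15 rats was measured on 45 arrays. The deposited dChip tables hold model-based signal on a linear scale, computed by the authors in separate tables for the ad libitum arrays (27) and the old arrays (36), so tests stay within a table. The value table holds the authors' signal for all 45 arrays with no scale stated, and the deposited detection calls mark probe sets as present or absent. No source used here gives the version of dChip or how the value table was made. Arrays were grouped by the labels' diet, age, performance and region. Animals were matched across regions by the codes in the array names. Signals were taken as log2(signal + 16) and probe sets with a table mean above the 40th percentile were tested with limma 3.58.1 in R 4.3.3 (lmFit, eBayes), leaving 18617 and 18622 probe sets, with Benjamini-Hochberg adjustment over all of them. Diet fits held performance as a term and performance fits held diet. The mean of regions was taken per animal, region fits had the animal as a block, and interactions with region used duplicateCorrelation. The number of arrays limits the precision. From each wider list, up to 4 tested genes of smallest p per comparison may be named, and the rest are counted. Members, lists and named genes were chosen with earlier results of these data known. Alternatives covered the value table, quantile normalization, the filter, the pseudocount, the averaging of probe sets, blocks and each array left out. Leaving out the marked arrays or the DG arrays high in meninges genes, and the limits between the poly-A sets, were chosen after seeing the data. The scripts were tested on simulated data. Replicates are separate animals, per the labels.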

Additional observations from a re-analysis of the deposited data

Results flagged for a closer look

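Each of the 10 genes was tested within each group of 6 arrays (diet and region, old animals), which gave 60 sets of values. In them 10 dChip values lay further from their neighbours than Dixon's 95% limit allows. Chance gives about 1 in 20 independent sets, but the genes share the same arrays, so the 60 are not independent. Of these 10, 7 were on the arrays the authors marked as outliers. On the marked CA1 array of a restricted poor performer, Gja1 (9887), Slc1a3 (7043) and the brightest Glul probe set (6781) were low. Aldh1l1 (1940) was high there. These directions hold for the dChip values only. In the value table the same array stood far above the rest for Gja1, so the tables place it at opposite ends for that gene. On the marked CA3 array, Gfap (8715), Slc1a2 (296) and S100b (7895) were low. In DG, 1 array of an old ad libitum good performer was high in Vim (7555) and Gjb6 (6196), and 1 of an old ad libitum poor performer was high in the brightest Glul probe set (8004). The causes were not tested.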

How the results depend on the processing

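For member probe sets called in the main fits, 194 values under other settings kept direction and call, 84 lost the call and 1 reversed. Leaving out 1 array or animal kept 279 and lost 63. Calls gained under other settings are not in these counts. The reversed value was Slc1a3 in CA3 against CA1, at 0.0135 in the 6 restricted animals (adjusted p = 0.909). Of 10 genes, the age count in CA1 was 2 in the value table, 2 after quantile normalization and 1 with old poor performers alone, and 1 to 6 with 1 array left out (1 without the third middle-aged array, 6 without the first old poor performer). The age count in CA3 was 2 with a pseudocount of 64, 2 with the mean of all probe sets of a gene, 0 with the replicate number as a block and 0 with old good performers alone, and 0 to 2 with 1 array left out (0 without the first or the third middle-aged array). The age count in DG was 0 in the value table, 2 with the mean of all probe sets and 0 with old good performers alone. The diet count in CA1 was 1 with the mean of all probe sets, 1 without the marked arrays, and 0 to 1 with 1 array left out. The diet count was 1 in CA3 in the value table, and in DG 2 in the value table, 0 within good performers, 0 within poor performers and 0 without the DG arrays high in meninges genes. Over the regions it was 0 within good performers and 0 within poor performers. In CA3 against CA1 the count was 0 in the value table, 2 with no filter, 1 after quantile normalization, 2 with no animal block and 0 in the restricted animals, and 2 to 4 with 1 animal left out. In DG against CA3 it was 0 in the value table, 1 after quantile normalization, 1 with no animal block and 0 in the restricted animals. In DG against CA1 it was 0 to 1 with 1 animal left out (1 without 1 old poor performer). Causes were not tested, and fits on part of the animals also had fewer arrays. The replicate numbers of the titles did not pair the arrays: deviations from group means had a mean correlation of -0.0177 in 84 same-number pairs and 0.0101 in 186 others. The poly-A sets that follow age and diet limit what the arrays resolve; the effect of high signal was not tested.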

Other observations

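Amigo2, a cell adhesion protein on the list of reactive astrocyte genes that is also known from CA2 and CA3 neurons, was higher in CA3 than in CA1 by 1.02 ± 0.12 in log2 (limma, adjusted p = 6.36e-05). Of the 17 genes of that list tested there, 4 were higher in CA3 and 1 was lower, where 8.8% of all probe sets were higher and 13.5% lower. The members and further astrocyte genes that passed there were lower. Microglial Trem2 fell with restriction over the regions, at -0.51 ± 0.06 (adjusted p = 0.000308), and Tyrobp, its adaptor, at -0.46 ± 0.14 (adjusted p = 0.0264).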
